A study of Mus musculus with 2 samples.

Results

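The peaks described here are the regions of open chromatin whose midpoint lay 1 to 10 kb upstream of the transcription start site (TSS) to which they were assigned, in cardiac progenitor cells (CPCs) of the mouse. Members were the distinct intervals of the deposited peak list whose signed distance to the assigned TSS was upstream, beyond 1 kb and up to 10 kb. Distances are negative upstream. They numbered 1691 of 26232 distinct peaks (6.45%). The cells were obtained by directed differentiation of E14 Tg(Nkx2–5-EmGFP) embryonic stem cells, a line with an EmGFP reporter of Nkx2-5, and were profiled at day 5 by ATAC-seq, in which Tn5 transposase places adapters in accessible DNA. Both samples were replicates of 1 group without knockdown, and per the study's methods they came from independent differentiations. Both are represented by 1 list of peaks called in both. The list holds no signal and no value per replicate, so read depth is unknown and no replicate error could be computed. The 95% intervals given below cover counting error over peaks, genes or windows and not the variation between differentiations. Growth with BMP4, Activin A, VEGF, bFGF and FGF10 was common to both samples, and cells knocked down for Isl1 are not analysed here.

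A promoter is the stretch at a TSS where RNA polymerase is loaded, and in mammals many promoters lie in CpG islands that stay open in most cell types. Sequence farther upstream can hold enhancers, which are bound by lineage transcription factors and act on promoters at a distance, insulator sites bound by CTCF, and start sites of other transcripts. In the embryonic heart, GATA, Nkx2-5, T-box, MEF2, Isl1 and Hand factors bind such elements, and SWI/SNF complexes remodel the nucleosomes there.

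The sequences of 5 upstream peaks are shown because they belong to genes of heart or blood development and were among the upstream peaks of listed genes with the most matches to GATA, Isl1 and Nkx2-5 motifs, as were those of Foxa2, Pax6 and Pecam1. Each is the central 300 bp of the peak, 5′ to 3′ on the plus strand of mm9 (NCBIM37). Capitals mark matches, on either strand, to the GATA word AGATAA, whose first letter may also be T and whose last letter may also be G. They also mark the Isl1 word CTAATG, whose last letter may also be T, and the Nkx2-5 word TNAAGTG. A match is a run of letters and does not show that a factor was bound.
Nkx2-5, chr17:26987751-26988050: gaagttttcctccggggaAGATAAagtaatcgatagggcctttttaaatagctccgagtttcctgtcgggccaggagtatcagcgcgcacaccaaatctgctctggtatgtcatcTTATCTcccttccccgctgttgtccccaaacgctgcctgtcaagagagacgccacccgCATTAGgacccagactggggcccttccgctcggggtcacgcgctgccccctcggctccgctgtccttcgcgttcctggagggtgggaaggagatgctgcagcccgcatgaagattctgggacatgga
Smarcd3, chr5:24115167-24115466: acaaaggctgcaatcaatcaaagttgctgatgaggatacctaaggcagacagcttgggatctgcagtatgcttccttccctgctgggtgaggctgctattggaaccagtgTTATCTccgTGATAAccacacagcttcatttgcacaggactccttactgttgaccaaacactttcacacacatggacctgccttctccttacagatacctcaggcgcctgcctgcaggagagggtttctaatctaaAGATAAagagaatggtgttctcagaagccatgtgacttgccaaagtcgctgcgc
Casq2, chr3:101887786-101888085: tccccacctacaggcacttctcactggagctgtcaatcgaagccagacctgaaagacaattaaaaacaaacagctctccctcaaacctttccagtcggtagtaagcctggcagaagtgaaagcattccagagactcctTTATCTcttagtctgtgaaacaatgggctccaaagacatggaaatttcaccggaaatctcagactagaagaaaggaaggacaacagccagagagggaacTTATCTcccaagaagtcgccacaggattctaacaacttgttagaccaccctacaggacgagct
Fgfr1, chr8:26625428-26625727: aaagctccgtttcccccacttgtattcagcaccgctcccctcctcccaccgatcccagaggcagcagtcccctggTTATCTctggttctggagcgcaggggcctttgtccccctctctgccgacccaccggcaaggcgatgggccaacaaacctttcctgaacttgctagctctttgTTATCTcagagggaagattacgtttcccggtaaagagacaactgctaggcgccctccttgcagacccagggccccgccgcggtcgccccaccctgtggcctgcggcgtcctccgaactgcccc
Gata2, chr6:88139664-88139963: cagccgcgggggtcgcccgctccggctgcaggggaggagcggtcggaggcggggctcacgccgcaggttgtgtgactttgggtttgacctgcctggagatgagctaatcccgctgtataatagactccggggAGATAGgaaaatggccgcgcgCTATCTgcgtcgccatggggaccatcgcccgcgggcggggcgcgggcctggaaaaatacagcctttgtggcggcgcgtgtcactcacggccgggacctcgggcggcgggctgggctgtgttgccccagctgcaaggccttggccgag

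The window upstream of Nkx2-5, a homeodomain factor of early heart cells, held 2 GATA matches and 1 Isl1 match. A GATA-dependent heart enhancer upstream of Nkx2-5 is known from reporter mice. The window of Smarcd3, which encodes the SWI/SNF subunit Baf60c, held 3 GATA matches, of which 2 lay close together in opposite orientation. The windows of Casq2, Fgfr1 and Gata2 held 2 GATA matches each, at GC contents of 46.7%, 62.0% and 68.3%. Of all upstream peaks, 514 (30.4%, 95% Wilson interval 28.3 to 32.6%) held at least 1 GATA match in the central 300 bp, 156 (9.23%, 7.94 to 10.7%) held at least 2 and 39 (2.31%, 1.69 to 3.14%) held at least 3. Matches to any of the 3 motifs numbered at least 2 in 295 upstream peaks (17.4%, 15.7 to 19.3%) and in 9 of the 40 upstream peaks of listed genes (22.5%, 12.3 to 37.5%).

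The upstream peaks were narrower than promoter peaks. Their median width was 985 bp (95% order-statistic interval 963 to 1005 bp), with quartiles at 785.5 and 1251 bp and a range of 389 to 5519 bp. Peaks within 1 kb of the TSS had a median of 1326 bp (1317 to 1338 bp), peaks 1 to 10 kb downstream 1037 bp (1021 to 1055 bp) and peaks 10 to 50 kb upstream 903 bp (890 to 917 bp). None of the intervals of these other medians overlapped that of the upstream peaks, while the quartile ranges of all 4 classes did overlap. Width reflects the peak caller and the depth of the replicate whose coordinates were kept as well as the chromatin.

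Widths above 2000 bp were found for 114 upstream peaks (6.74%). The 5 widest were assigned to Tns2, which encodes a tensin of focal adhesions (5519 bp, midpoint at −1071 bp), Sin3a, a scaffold of histone deacetylase complexes (5279 bp, −1254 bp), Rarg, a retinoic acid receptor (5021 bp, −1350 bp), the noncoding gene 4933429K18Rik (4997 bp, −4832 bp) and the microRNA gene Mir3089 (4689 bp, −2441 bp). The first 3 lay close to the inner edge of the class, and such wide peaks can cover the TSS itself. In 17 upstream peaks (1.01%, 0.629 to 1.60%) the interval reached the assigned TSS. Their median width was 3349 bp and the farthest midpoint was at −2062 bp. Among them was the peak of Gata4, a zinc finger factor of heart development (chr14:63863283-63867006, 3724 bp, −1036 bp), so its interval covered the TSS.

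The edges of the class were not marked by a gap. Just inside the inner edge were the peaks of Adgra2, an adhesion receptor (−1002 bp, 2699 bp wide), and Ccin, which encodes calicin (−1003 bp, 1179 bp). Just outside it were those of Neil1, a DNA glycosylase (−1000 bp, 1543 bp), and Fam19a5 (−989 bp, 1462 bp). At the outer edge, the peaks of Lefty1, an inhibitor of Nodal signalling (−9981 bp, 1159 bp), and Slc38a2, an amino acid transporter (−9966 bp, 1288 bp), were the last inside. Gm13446 (−10014 bp, 1240 bp) and Mrpl58 (−10027 bp, 786 bp) were the first outside.

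**Figure D1:**
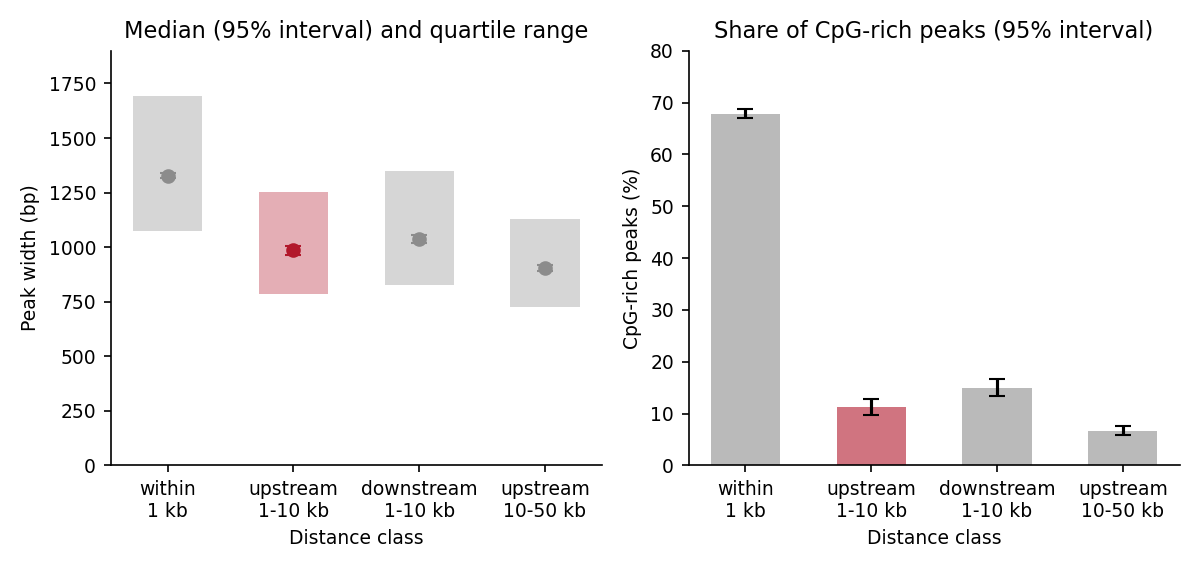
Left, peak width in bp for 4 distance classes, where points are medians, error bars their 95% order-statistic intervals and boxes the range between quartiles. Right, percentage of CpG-rich peaks in the same classes with 95% Wilson intervals. The upstream peaks (red) have a median of 985 bp and a CpG-rich share of 11.2%, between the peaks within 1 kb (1326 bp, 67.9%) and those 10 to 50 kb upstream (903 bp, 6.67%).

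Most upstream peaks lacked the base composition of CpG islands. CpG-rich here means a GC content of 50% or more together with a CpG frequency that reached 0.6 of that expected from the C and G content. This held for 189 upstream peaks (11.2%, 9.76 to 12.8%), against 67.9% of peaks within 1 kb, 14.99% of peaks 1 to 10 kb downstream and 6.67% of peaks 10 to 50 kb upstream. The upstream share was lower than the downstream share by a difference of −3.82 percentage points (95% Newcombe interval −6.00 to −1.61) and higher than the share at 10 to 50 kb by 4.51 points (2.79 to 6.32). It fell with distance, from 21.1% (16.6 to 26.4%) at 1 to 2 kb to 10.7% (6.67 to 16.6%) at 4 to 5 kb and 8.28% (5.00 to 13.4%) at 9 to 10 kb. Downstream peaks at 1 to 2 kb had a share of 37.2% (32.02 to 42.7%), whose interval did not overlap that of the upstream peaks at the same distance. CpG-rich upstream peaks were wider, with a median of 1280 bp (1190 to 1373 bp), than the others at 953.5 bp (935 to 972 bp).

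A part of the upstream peaks lay at another start site. In the GENCODE annotation, 227 upstream peaks (13.4%, 11.9 to 15.1%) had their midpoint within 1 kb of any annotated TSS. This was fewer than among downstream peaks (16.3%, difference −2.87 points, −5.18 to −0.540) and more than at 10 to 50 kb upstream (7.61%, difference 5.81 points, 3.96 to 7.75). For 101 of them (5.97%) the TSS belonged to the assigned gene itself, for 74 (4.38%) to another protein coding gene and for 29 (1.71%) to a long noncoding gene. Of the 101, 19, with the peak of Hes1 among them, lay at 1 to 1.2 kb, where a small shift between annotations suffices, 16 at 1.2 to 2 kb, 42 at 2 to 5 kb and 24 at 5 to 10 kb. The other upstream peaks at a start were at small RNA or other genes (12) or pseudogenes (11). The CpG-rich share was 32.6% (26.8 to 38.9%) among upstream peaks at such start sites and 7.86% (6.58 to 9.35%) among the 1464 peaks away from them.

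Regulators of transcription were among the genes with an upstream peak at an annotated start of their own. They included Sin3a, Arid1a, which encodes a SWI/SNF subunit (−3425 bp, 1834 bp wide), Nr3c1, the glucocorticoid receptor (−3136 bp, 3442 bp), Nfic, a CCAAT-binding factor of the nuclear factor I family (−3487 bp, 2962 bp), and Hes1, a Notch target (−1004 bp, 3074 bp). The N-methyl-D-aspartate receptor gene Grin2a had such a peak too (−1366 bp, 3401 bp). Other upstream peaks were assigned to one gene and lay at the start of a neighbour. The peak assigned to Tnfrsf25 (−8210 bp, 2223 bp) lay at a start of Plekhg5, and that assigned to Fam171a2 (−8775 bp, 2116 bp) at a start of Itga2b, the platelet integrin gene. A peak of 4250 bp assigned to Klf9, a Krüppel-like factor (−6369 bp), lay at a start of the noncoding gene 2410080I02Rik. These genes, apart from Sin3a, Arid1a and Hes1, were chosen for mention after their values were seen.

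By position of the midpoint, 1110 upstream peaks (65.6%, 63.3 to 67.9%) were intergenic, 304 (17.98%) intronic, 173 (10.2%) within 1 kb of a protein coding TSS, 44 (2.60%) in coding exons, 30 (1.77%) in 3′ UTRs, 29 (1.71%) in other exons and 1 in a 5′ UTR. The intergenic share was 46.2 points (43.2 to 49.0) above that of downstream peaks, which follow a TSS into the gene body, and differed from the 66.1% at 10 to 50 kb upstream by −0.501 points (−3.36 to 2.33). Of the upstream peaks in introns, exons or UTRs, 298 (17.6% of all upstream peaks) lay in the annotated span of another gene alone. The span of the assigned gene held 110 (6.51%), where a longer transcript starts farther upstream. Upstream peaks within 1 kb of a protein coding TSS were left out of these 2 counts. Noncoding accessions were assigned to 14.1% of upstream peaks, against 9.79% of all peaks. The share was 13.4% among downstream peaks (difference 0.696 points, −1.55 to 2.96) and 14.3% at 10 to 50 kb upstream (difference −0.236 points, −2.30 to 1.90), and both intervals include 0.

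The number of upstream peaks did not fall steadily with distance. Per kb it was 261 at 1 to 2 kb, 195, 157 and 150 in the next 3 classes, then 205 at 5 to 6 kb, and 195, 190, 169 and 169 up to 10 kb. Downstream counts had the same shape, with 309, 205, 165 and 168 below 5 kb and 223, 232, 219, 195 and 205 beyond. Upstream peaks made up 46.8% (45.2 to 48.4%) of peaks 1 to 10 kb on either side.

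The rise at 5 kb was found at genes that also had a peak within 1 kb of a TSS. At these genes the upstream counts per kb were 68, 53, 47 and 46 from 1 to 5 kb and 112, 110, 111, 102 and 93 from 5 to 10 kb. At genes without such a peak they declined from 193 at 1 to 2 kb to 104 at 4 to 5 kb, 93 at 5 to 6 kb and 76 at 9 to 10 kb. Thus 214 of the upstream peaks of the first kind of gene (28.8%, 25.7 to 32.2%) lay at 1 to 5 kb, against 549 of those of the second (57.9%, 54.7 to 61.0%), a difference of −29.0 points (−33.4 to −24.4). The same difference downstream was −25.2 points (−29.4 to −20.9).

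The same step was seen in the spacing of all peaks whatever their class. Midpoints of neighbouring peaks lay 3 to 4 kb apart in 204 pairs and 4 to 5 kb apart in 270, but 5 to 6 kb apart in 572 and 6 to 7 kb apart in 621. Of the upstream peaks, 71 had their nearest peak at 4 to 5 kb and 161 at 5 to 6 kb. MACS14, with which the peaks were called, weighs a candidate region against the reads in the sequence around it. Whether this shaped the counts near strong peaks was not tested, since the list holds no signal. At genes with both, the promoter peak had a median width of 1313 bp (1242 to 1398 bp, n = 210) where the upstream peak lay at 1 to 5 kb and 1399.5 bp (1331 to 1471 bp, n = 520) where it lay at 5 to 10 kb, with overlapping intervals.

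**Figure D2:**
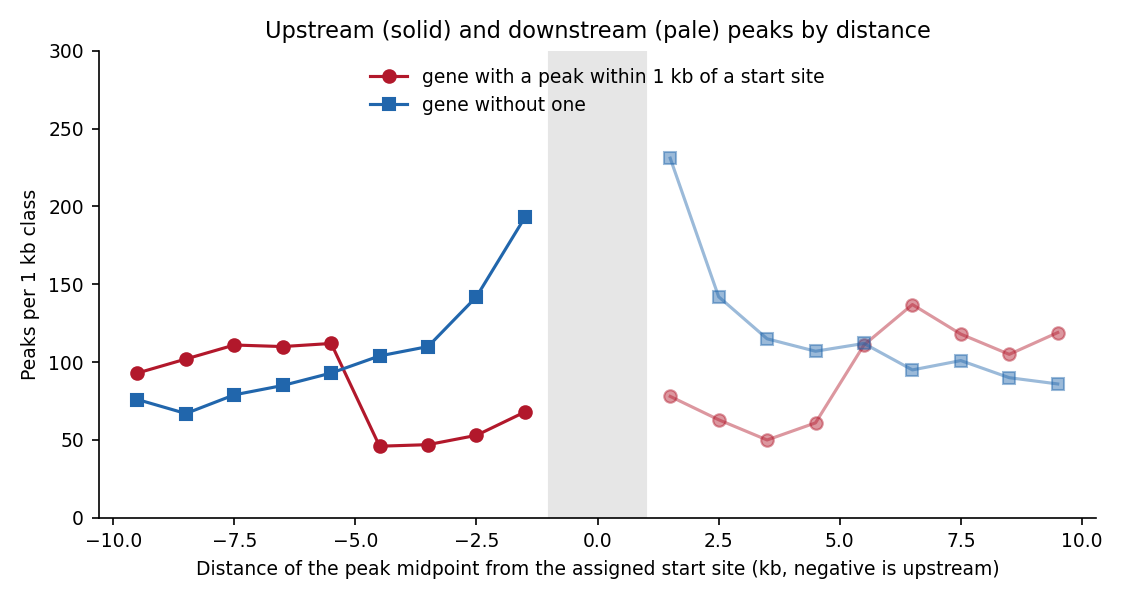
Number of peaks per 1 kb class (y axis) by distance of the midpoint from the assigned start site in kb (x axis), for genes with (red circles) and without (blue squares) a peak within 1 kb of a start site. Grey marks the 1 kb on either side of the start, which is not plotted. Red counts rise from 46 at 4 to 5 kb to 112 at 5 to 6 kb upstream, while blue counts fall steadily from 193 at 1 to 2 kb to 93 at 5 to 6 kb.

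Other peaks were often close. A gap of at most 10 kb separated 1074 upstream peaks (63.5%, 61.2 to 65.8%) from another peak, against 64.1% of downstream peaks, 28.8% of peaks within 1 kb and 29.9% of those 10 to 50 kb upstream. The difference from the last class was 33.6 points (30.7 to 36.4) and that from downstream peaks −0.621 points (−3.76 to 2.51). A promoter peak of the same gene counts as such a neighbour. The distance rule places it within about 10 kb of an upstream peak, but mostly farther from peaks at 10 to 50 kb. The difference from that class therefore follows in part from how the classes were defined.

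The upstream peaks were assigned to 1623 genes, or 10.6% (10.1 to 11.1%) of the 15349 genes with any peak. A single upstream peak was assigned to 1559 genes, 2 peaks to 61 genes, 3 to C77080 and Plekha7 and 4 to Gm3383. The 4 peaks of Gm3383 on chromosome 14 are uncertain, since the share of their 32-base words that stood in another of them was 43.6%, 95.6% and 94.5% for 3 of them and complete for the other. At Plekha7, which encodes a protein of adherens junctions, the peaks lay at −1334, −7016 and −8509 bp and were 597, 1395 and 1147 bp wide. At C77080 they lay at −2127, −3109 and −3744 bp and were 1152, 1554 and 1966 bp wide.

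By the deposited distances, fewer than 1 in 2 of these genes also had a peak with its midpoint within 1 kb of the assigned TSS. An upstream peak at another annotated start of its own gene does not count as one. With distances to the nearest annotated protein coding TSS of any gene, which changes the peaks and genes counted, the share was 54.6% (52.3 to 56.9%). Peaks kept their deposited gene there, so a peak at the start of a neighbour counted as well. By the deposited distances, a peak within 1 kb of a TSS was assigned to 718 of the 1623 genes (44.2%, 41.8 to 46.7%). The share was 44.1% of genes with a peak 1 to 10 kb downstream (difference 0.125 points, −3.18 to 3.43). It was 58.7% of genes with a peak 10 to 50 kb upstream (difference −14.5 points, −17.6 to −11.3). Over all 15349 genes with a peak it was 11452 (74.6%, 73.9 to 75.3%), which includes genes with no other peak. For 500 genes (30.8%) all assigned peaks were upstream ones.

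The start sites behind the distances differed between these kinds of gene. Of 1452 upstream peaks whose assigned gene had an annotated strand, the start site from which the distance was measured was CpG-rich in 616 (42.4%, 39.9 to 45.0%). The share was 67.8% (64.2 to 71.2%) where the gene had a peak within 1 kb and 20.0% (17.3 to 22.9%) where it had none, a difference of 47.9 points (43.2 to 52.2). Any peak, whatever its assigned gene, overlapped the 500 bp on either side of that start in 91.2% and 8.30% of these cases. Since the genes were grouped by a peak near their start, this contrast was largely fixed by the grouping. A peak missing from the list is not a measurement of closed chromatin.

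Chromosomes contributed unequally. Autosomes held 0.417 (chromosome 16) to 1.18 (chromosome 11) upstream peaks per Mb, and the X chromosome 30 peaks or 0.180 per Mb. Of the genes with a peak on X, 6.28% (4.43 to 8.82%) had an upstream peak, against 8.37 to 13.4% on the autosomes, and the X interval overlapped those of the lowest autosomes. None of the 5 peaks on Y was an upstream peak.

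To describe which genes of heart development carried upstream peaks, 10 gene lists were used. Any peak, at whatever distance, was assigned to 35 of 39 cardiac transcription factors, 39 of 40 cardiac signalling genes, 21 of 23 SWI/SNF subunits and 24 of 35 cardiac contraction genes. The counts were as high in some lists of other cell types, with 22 of 23 neural genes, 12 of 13 smooth muscle genes, 17 of 22 endothelial and blood genes and 14 of 19 pluripotency genes, and lower for skeletal muscle (8 of 19) and liver genes (7 of 22). An upstream peak was found at 8 of the 24 cardiac contraction genes with a peak (33.3%, 17.97 to 53.3%), 8 of 35 cardiac transcription factors (22.9%, 12.1 to 39.0%), 6 of 39 signalling genes (15.4%, 7.25 to 29.7%) and 2 of 21 SWI/SNF subunits (9.52%, 2.65 to 28.9%). The share over all genes with a peak was 10.6%. Among lists of other cell types it was 4 of 22 neural, 3 of 17 endothelial and blood, 2 of 14 pluripotency and 2 of 7 liver genes, and none of 12 smooth muscle or 8 skeletal muscle genes. Counted by peaks, 10 of the 61 peaks of contraction genes were upstream ones (16.4%, 9.16 to 27.6%), and 10 of the 145 of cardiac transcription factors (6.90%, 3.79 to 12.2%), against 6.45% of all peaks. The counts per list are small and no list was tested.

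Among genes of contraction and conduction, upstream peaks lay at structural and ion channel genes alike. Casq2, the calcium-binding protein of the cardiac sarcoplasmic reticulum, had 2 of them (chr3:101887411-101888461 at −2443 bp and chr3:101885425-101886498 at −4417 bp), separated by 912 bp. Myl2, the regulatory myosin light chain of the ventricle, also had 2 (chr5:122544182-122545070 at −6364 bp and chr5:122540989-122541608 at −9691 bp). None of the 3 peaks of either gene lay within 1 kb of its TSS. The troponin I genes had 1 each, Tnni1 of slow muscle and the fetal heart at −4525 bp (chr1:137690914-137692034, in an intron of a longer Tnni1 transcript) and cardiac Tnni3 at −4200 bp (chr7:4477811-4478681, in an exon of a noncoding transcript and near a start of Gm15873). The peak of Mybpc3, cardiac myosin-binding protein C, lay at −2814 bp in a coding exon of Sfpi1, a neighbouring gene for a blood cell factor (chr2:90955026-90955949). For Tnni3 and Mybpc3 this was the one peak assigned to the gene. Of the channel genes, the potassium channel Kcnh2 had an upstream peak at −6541 bp (chr5:23841416-23842486, 1071 bp wide) and the pacemaker channel Hcn4 at −9464 bp (chr9:58661248-58662463, 1216 bp). Kcnh2 and Hcn4 also had a peak within 1 kb of a TSS, while Casq2, Myl2, Tnni1, Tnni3 and Mybpc3 did not.

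Among cardiac transcription factors, 5 of 8 genes with an upstream peak had a promoter peak too. The upstream peak of Nkx2-5 (chr17:26987324-26988478, −9390 bp, 1155 bp wide, GC content 54.9%) was intergenic and 8331 bp from the nearest other peak. Tbx18, a T-box factor of the sinus horn and epicardium, had 2 peaks 161 bp apart at −8626 and −9589 bp (1002 and 603 bp). Meis1, a homeodomain partner of Hox and Pbx factors, had peaks at −1768 and −8483 bp (1067 and 1120 bp). Mef2c, a MADS-box factor of muscle, had its peak at −5298 bp in an intron of a longer Mef2c transcript (1283 bp). Hey2, a Notch effector of the ventricle, had one at −1667 bp (872 bp), separated by 275 bp from another peak. Gata4, Hes1 and Nr2f2, an orphan receptor of the atria (−1099 bp, 1529 bp), had no peak with its midpoint within 1 kb. All 3 of these midpoints lay just beyond the inner edge, and 4 of the 8 genes had no upstream peak left when the inner edge was moved to 2 kb. The intervals of Gata4 and Hes1 reached the assigned TSS, and without such peaks 6 of the 35 genes had an upstream peak.

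The list of signalling genes itself holds many receptors, and receptors made up 5 of the 6 with an upstream peak. They were the FGF receptors Fgfr1 (−3654 bp, 1626 bp wide) and Fgfr2 (−6663 bp, 836 bp), both in introns of longer transcripts of the same gene, the PDGF receptor Pdgfra, a marker of early mesoderm (−3505 bp, 1492 bp), the semaphorin receptor Plxna2 (−9088 bp, 925 bp) and the hedgehog receptor Ptch1 (−2330 bp, 1251 bp). The other was the ligand Shh, whose one peak lay at −2806 bp in introns of the noncoding genes 9530036O11Rik and Gm17493 (1066 bp) and 151758 bp from any other peak. Ptch1 had a CpG ratio of 0.876 in its upstream peak, and Plxna2 had 0.0879. The SWI/SNF genes were Arid1a, above, and Smarcd3, whose intergenic peak at −7496 bp (chr5:24114738-24115896) was 1159 bp wide. Neither had a peak within 1 kb of the assigned TSS.

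Genes of other cell types had upstream peaks as well. In the endothelial and blood list these were Gata2, a factor of blood progenitors (−8845 bp, 1440 bp wide), Tal1, a factor of blood and endothelium (−3789 bp, 1095 bp), and Pecam1, an endothelial adhesion molecule (−7971 bp, 1571 bp), whose one peak this was. Pluripotency genes were Nanog (−4766 bp, 1212 bp) and Lin28b, which encodes a regulator of let-7 microRNAs (−3215 bp, 636 bp). Neural factors were Pax6 (−2015 bp, 1041 bp), Sox1 (−3710 bp, 645 bp), Neurog2 (−7656 bp, 653 bp) and En2 (−7228 bp, 1004 bp), and the endoderm factor Foxa2 of the liver list had peaks at −1843 and −6417 bp (1192 and 993 bp). The methods describe sorting of Nkx2-5-positive cells for RNA-seq and, like the labels, state no sort for these ATAC-seq samples. Cells of different types cannot be told apart in bulk chromatin.

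**Figure D3:**
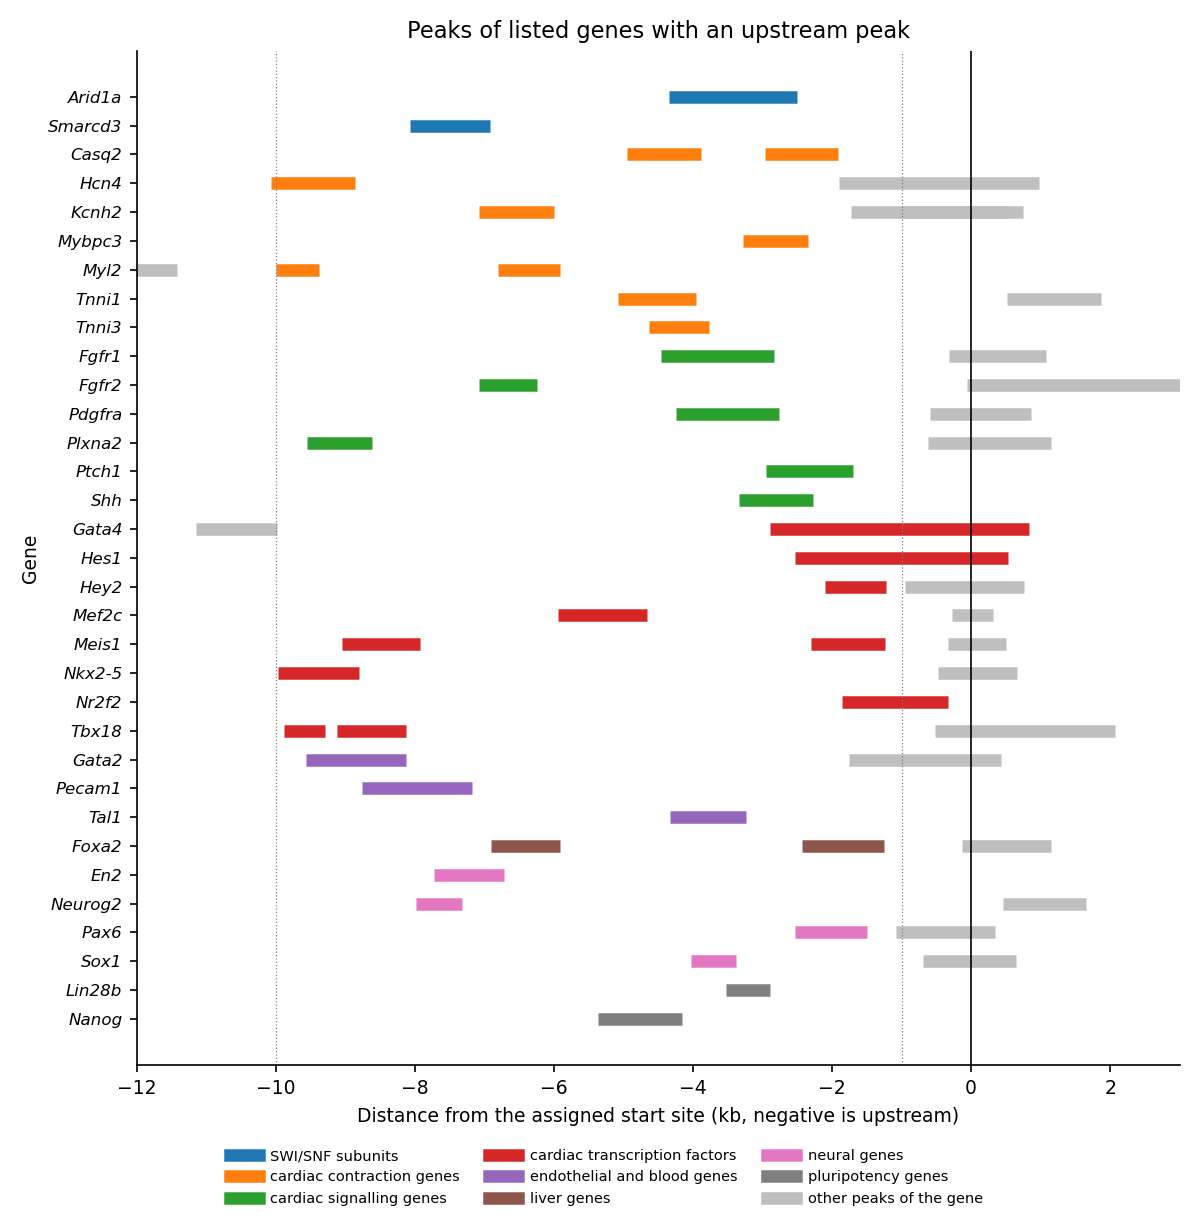
Peaks of the listed genes named in the text, each with at least 1 upstream peak, drawn to scale by distance from the assigned start site (x axis, kb), 1 gene per row. Colours mark upstream peaks by gene list, grey marks other peaks of the same gene, the solid line is the start site and dotted lines are the edges of the class at 1 and 10 kb. Myl2, Tbx18, Casq2, Meis1 and Foxa2 have 2 upstream peaks each, and the peaks of Gata4 and Hes1 cross the start site.

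Motif content differed between the upstream peaks and the sequence beside them. The central 300 bp of each peak was compared with 3244 windows of the same length that were centred 3 kb to either side and overlapped no peak. GC content had a median of 55.7% in the peaks and 46.7% in these windows, and a median of 66.7% in peaks within 1 kb. Composition alone alters how often a word occurs. The paired windows share a locus with their peak and are not independent of it.

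CTCF is the insulator protein. Its consensus was found in 89 upstream peaks (5.26%, 4.30 to 6.43%) and 14 flanking windows (0.432%, 0.257 to 0.723%), a difference of 4.83 points (3.82 to 6.01). The share was 5.10% in downstream peaks, 5.90% at 10 to 50 kb upstream, 0.637% within 1 kb and 2.96% in all peaks. Upstream peaks with the motif were narrower, with a median of 826 bp (758 to 877 bp) against 995 bp (979 to 1016 bp) without it. Of the 89, 2 were CpG-rich and 4 lay at another start site. Matches were concentrated at the midpoint, with 0.260 per kb in the 50 bp just after it and 0.0118 per kb at 375 bp.

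The SP/KLF word GGGCGG was found in 27.6% of upstream peaks (25.5 to 29.7%) and 6.10% of flanks, against 66.5% of peaks within 1 kb, 30.9% of downstream peaks and 41.8% of all peaks. Read backwards, as GGCGGG, it was found in 27.7% of upstream peaks and 6.44% of flanks. The run GGGCGGG holds both words. The E-box CAGCTG, bound by basic helix-loop-helix factors, was found in 22.2% of upstream peaks (20.3 to 24.2%), 8.21 points (5.93 to 10.6) above the flanks and close to the 21.2% of all peaks. The TEAD word CATTCC, bound by effectors of the Hippo pathway, was found in 19.6% (17.8 to 21.6%), 4.93 points (2.71 to 7.22) above the flanks and above the 9.33% of peaks within 1 kb. Its share was 19.7% in downstream peaks, 20.7% at 10 to 50 kb upstream and 16.5% in all peaks. Upstream peaks also exceeded their flanks for ETS (CCGGAAG) with 4.55% against 1.51%, for the octamer (ATGCAAAT) with 2.48% against 1.23% and for AP-1 (TGACTCA) with 7.04% against 5.33%. In all peaks these shares were 8.42%, 1.94% and 5.26%. The ETS word read backwards, which lacks the CpG, was found in 6.51% of upstream peaks and 4.50% of flanks. The MEIS word TGACAG reached 22.1% against 19.4% of flanks and 20.7% of all peaks. With the central 500 bp of each peak the intervals for AP-1 and MEIS included 0.

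GATA, Isl1, Nkx2-5 and MEF2 motifs were less frequent in upstream peaks than in the flanks. GATA words were found in 30.4% of upstream peaks and 38.9% of flanks, a difference of −8.51 points (−11.2 to −5.72), against 11.3% of peaks within 1 kb, 35.6% of those 10 to 50 kb upstream and 24.4% of all peaks. For Isl1 the shares were 13.1% and 17.5%, a difference of −4.38 points (−6.42 to −2.26), and 11.2% in all peaks. For MEF2 they were 0.651% and 4.41%, and for Nkx2-5 11.3% and 13.9%, of which the Nkx2-5 difference had an interval including 0 without CpG-rich peaks. Each of these words is poor in G and C. Read backwards, with the same composition, the GATA words were found in 20.1% of upstream peaks and 33.3% of flanks. For Isl1 these shares were 8.22% and 19.3%, for Nkx2-5 10.1% and 12.9%, and for MEF2 0.651% and 3.55%. The ratio of word to backward word was 1.51 in upstream peaks and 1.17 in flanks for GATA, and 1.60 and 0.907 for Isl1. It was 1.12 and 1.08 for Nkx2-5 and 1.0 and 1.24 for MEF2. Some backward GATA words, such as GATAGA, still hold GATA, and the backward Isl1 words keep the run TAAT. The GATA and Isl1 ratios therefore do not isolate the effect of composition.

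Compared with downstream peaks, the intervals of 3 of 18 motif differences excluded 0. The NF-Y word CCAAT was more frequent upstream (32.5% against 27.4%, 5.08 points, 2.09 to 8.07), SP/KLF less frequent (−3.31 points, −6.27 to −0.337), and NRF1 differed by 0.362 points (0.0391 to 0.802) on 7 upstream peaks. No correction for the number of motifs was made. The NF-Y share did not exceed that of the flanks (32.5% against 32.1%, 0.376 points, −2.35 to 3.14). Read backwards, CCAAT was found in 25.9% of upstream peaks and 30.1% of flanks. The ratio of word to backward word was 1.25 and 1.07. The remaining words, T-box (AGGTGT), forkhead (TGTTTAC), TCF/LEF (ATCAAAG) and YY1 (AAGATGGC), were found in 14.8%, 3.96%, 3.96% and 1.30% of upstream peaks and in 17.1%, 3.73%, 4.41% and 2.03% of flanks. T-box was thus also less frequent than in the flanks (−2.32 points, −4.42 to −0.152). Its backward word was found in 18.7% of upstream peaks and 20.2% of flanks. The ratio of word to backward word was 0.791 and 0.849. The intervals of the forkhead, TCF/LEF and YY1 differences from the flanks included 0. Words were searched on both strands. A base can belong to matches of several motifs, and each motif was counted on its own.

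**Figure D4:**
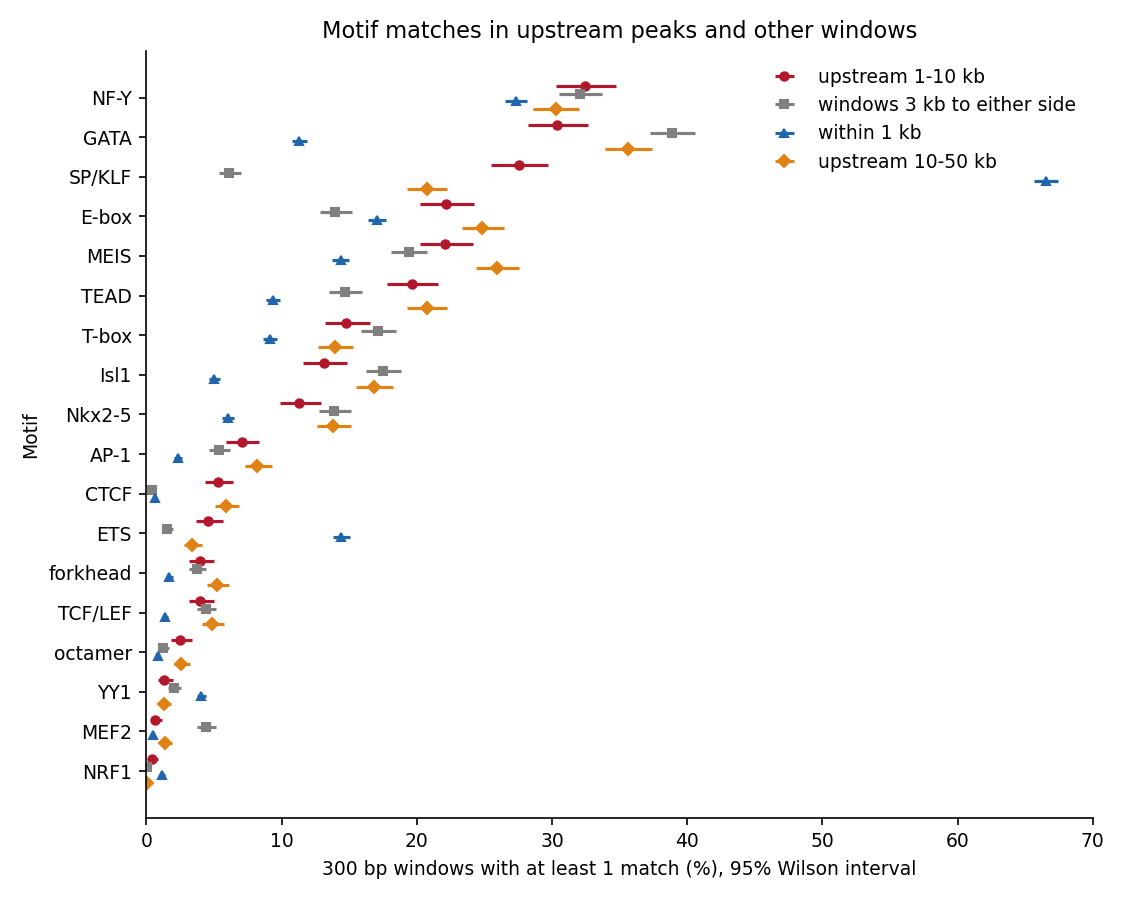
Percentage of 300 bp windows with at least 1 match to each of 18 motifs (x axis), with 95% Wilson intervals, for upstream peaks (red circles), windows 3 kb to either side (grey squares), peaks within 1 kb (blue triangles) and peaks 10 to 50 kb upstream (orange diamonds). CTCF is found in 5.26% of upstream peaks and 0.432% of the windows beside them, GATA in 30.4% and 38.9%, and SP/KLF in 27.6% of upstream peaks against 66.5% within 1 kb.

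Listed genes illustrated this range. Beside its 2 GATA and 1 Isl1 matches, the Nkx2-5 window held 1 MEIS match. The nearer Casq2 window held 1 TEAD and 1 MEIS match, and the Myl2 window at −6364 bp held 3 MEIS matches and 1 each for the E-box, T-box and ETS words. The Nanog window held 3 TEAD matches, the Tal1 window 3 SP/KLF matches and the Gata2 window 2 SP/KLF matches beside its GATA pair. The Shh window held no match to any of the 18 motifs. CTCF matched in none of the 40 windows of listed genes.

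**Figure D5:**
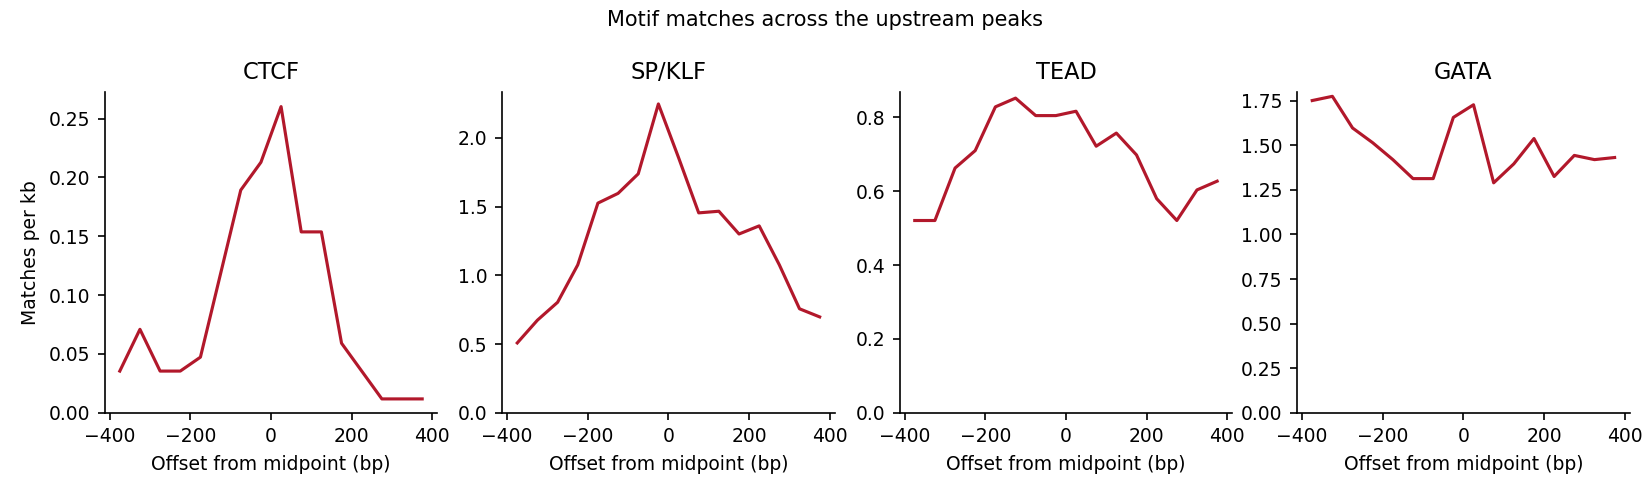
Matches per kb of sequence (y axis) in 50 bp steps by offset from the peak midpoint in bp (x axis) over the 1691 upstream peaks. CTCF rises to 0.260 per kb just after the midpoint and SP/KLF to 2.25 per kb just before it. GATA is at 1.73 per kb just after the midpoint, 1.31 at −75 bp, 1.29 at 75 bp and 1.75 at −375 bp. TEAD is at 0.816 per kb just after the midpoint and 0.520 at −375 bp.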

How the data were processed

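ATAC-seq was performed by the authors on 2 replicates of day 5 CPCs. The methods state that bowtie2 was used for alignment to mm9, duplicates were removed with Picard (1.136), MACS14 was run on each replicate with a fixed shift, blacklisted regions were dropped, and peaks overlapping by at least 1 bp in both replicates were kept with bedtools (2.15). The nearest TSS was assigned with HOMER, a step described for ChIP-Seq. Beyond that shift, the methods give no adjustment for where Tn5 cuts. The deposited values are positions and distances in bp, an accession and a gene symbol. They hold no signal, count or score.

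The list was read as 26429 lines and 26232 distinct intervals, and 9 members stood on more than 1 line. Chromosome lengths showed that mm9 and the NCBIM37 genome are the same, and gene models were those of GENCODE vM1. A symbol of that annotation was found for 1454 members (86.0%), and for 950 the deposited distance equalled that to an annotated TSS of the gene within 1 bp.

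Shares are given with 95% Wilson intervals, differences with Newcombe intervals and medians with order-statistic intervals (Python 3.11.15, NumPy 2.4.6, SciPy 1.17.1). Statistics were tested on simulated data. Genes named are those of 10 gene lists with an upstream peak, the 5 widest peaks, the genes with the most upstream peaks, and the 2 peaks on either side of each edge. Members, lists and motifs were chosen with earlier results of these data known, and the study named part of the cardiac genes from chromatin of such cells. Alternatives covered the edges, the annotation, the CpG rule, the gap and the motif window. Isl1 knockdown cells are not analysed here, and some listed genes with an upstream peak are counted in their list but not reported here by name.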

Additional observations from a re-analysis of the deposited data

How the results depend on the processing

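No paired analysis was possible because the samples form a single group, and neither replicate could be left out, as values of single replicates are not in the list. Of 175 combinations of a result and an alternative, 147 were labelled unchanged by a rule that allowed some change in size. For example, the GATA difference from the flanks was −8.51 points in the main setting. It was labelled unchanged at −5.16 points in the central 200 bp and at −12.9 points in the central 500 bp. Taking distances to the nearest annotated protein coding TSS in place of the deposited ones gave 1935 peaks, a median width of 948 bp, an intergenic share of 58.0%, a CpG-rich share of 8.94%, 4.44% at another start site and 54.6% of genes with a peak within 1 kb. The 4.44% cannot include coding starts, since members then lay more than 1 kb from every coding TSS. The 54.6% was taken over a changed set of genes, and peaks at the starts of neighbours counted. With the inner edge at 2 kb, the share of genes with a peak within 1 kb was 47.4%. The CpG-rich share was then 9.37% and the cardiac transcription factors with an upstream peak 4. The share of genes was 49.6% with protein coding accessions only and 41.1% with a peak within 500 bp. The share at another start site was 10.8% within 500 bp and 10.2% for coding starts only. The CpG-rich share was 19.3% in the central 300 bp and 3.49% at a ratio of 0.75 and a GC content of 55%. Neighbours were found for 27.8% of upstream peaks at 5 kb and 81.4% at 25 kb.

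Motif differences from the flanks, in points, lost an interval excluding 0 for Nkx2-5 (−1.62), T-box (−2.12) and NRF1 (0.165) without CpG-rich peaks, for T-box (−1.53) and MEIS (1.76) in the central 200 bp, and for AP-1 (1.56) and MEIS (1.78) in the central 500 bp. Intervals came to exclude 0 for NF-Y at 200 bp (2.58) and YY1 at 500 bp (−1.28). The sign turned for NF-Y (−3.73) and forkhead (−0.0515) at 500 bp and TCF/LEF (0.185) at 200 bp. The causes were not tested. The difference by promoter peak in the share at 1 to 5 kb, and the alternatives without peaks that reach the TSS, were chosen after seeing the data. Without those 17 peaks there were 1674 upstream peaks and 6 cardiac transcription factors with one. The shares, medians, gene lists and motif differences recomputed were labelled unchanged by the same rule. The difference ranged from −28.9 to −25.4 points over its alternatives. Unknown depth limits every count, since weaker regions called in 1 replicate alone are missing.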
